A study of Mus musculus with 3 samples.

Results

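The circadian clock output genes described here are Per1, Per2, Per3, Dbp, Tef, Hlf, Nr1d1, Nr1d2, Arntl and Ciart, that is, 10 of the 32245 gene symbols counted, of which 25279 had at least 1 UMI (a unique molecular identifier, the mark of 1 captured transcript) in a kept cell. They were taken by symbol, and all 10 were present. Single cells were sequenced from tibialis anterior muscle of C57/BL6J mice 4 days after injury by injection of barium chloride, which all groups received. The young PBS group held mice of 3 to 4 months given vehicle, the old PBS group held mice of 24 to 26 months given vehicle, and the old rMETRNL group held mice of 24 to 26 months given recombinant meteorin-like protein. Each group was 1 library made from the pooled muscles of triplicate mice, so the spread between mice cannot be seen and the groups could not be tested against each other, and all intervals cover counting error only. The mice were kept on an equal light and dark cycle, and the hour at which each library was collected was not given in the sources used here, so that age, treatment, hour of collection and any other feature of a library cannot be told apart.

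The circadian clock is a feedback loop of transcription that runs in most cells of the body. BMAL1, the product of Arntl, pairs with CLOCK and activates genes through E-box sequences, among them the Period genes, Ciart, Nr1d1, Nr1d2 and Dbp. The PERIOD proteins and CIART act back on the activator, and the REV-ERB receptors made by Nr1d1 and Nr1d2 repress Arntl, so that Arntl runs roughly opposite in phase to most of the other members. DBP, TEF and HLF are related leucine zipper factors that carry the rhythm to further genes through D-box sequences. In macrophages and in muscle the clock is known to set the timing of inflammatory and metabolic genes.

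The promoter stretches below are shown because they hold matches to the elements named above. RefSeq promoter windows of build GRCm38.p6, from 250 bases before to 50 bases after a transcript start, were matched for 9 of the 10 members and gave 12 windows. The searched E-box was CACGTG, which reads the same on both strands, and it was found in 4 of the 12 windows, those of 3 genes (Ciart, Per1 and Tef), and in 7.15% of all 32851 windows. The letters were not in these windows of Per3, Nr1d1, Nr1d2, Dbp, Hlf or Arntl, which says nothing of sequence outside them. In Ciart 3 copies lay within 102 bases, at chr3:95882255-95882356 on the minus strand, with the E-boxes in capitals.
Ciart: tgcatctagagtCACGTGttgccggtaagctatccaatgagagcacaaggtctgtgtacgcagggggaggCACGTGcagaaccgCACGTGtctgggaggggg
The E-box of Per1 lay at chr11:69098771-69098800 on the plus strand, and those of the 2 Tef windows at chr15:81802534-81802563 and chr15:81811264-81811293, also on the plus strand.
Per1: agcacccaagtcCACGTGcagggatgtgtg
Tef, first window: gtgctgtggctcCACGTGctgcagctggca
Tef, second window: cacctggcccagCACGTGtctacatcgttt
The D-box was searched as TTATGTAA and TTACGTAA on both strands, and among the members it was found in Per3 alone, in 2 copies at chr4:151044804-151044882 on the minus strand, against 1.056% of all windows.
Per3: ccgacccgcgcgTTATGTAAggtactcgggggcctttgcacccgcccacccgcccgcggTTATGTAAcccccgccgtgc
The core of the element bound by REV-ERB and ROR receptors was searched as TAGGTCA on both strands, and was found in Arntl alone, at chr7:113207531-113207557 on the plus strand, against 2.606% of all windows.
Arntl: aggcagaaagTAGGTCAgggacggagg
These matches are descriptions of the letters in the windows, and the data hold no measure of binding.

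The libraries held 179295668 to 228966697 UMIs in 12168 to 14012 barcodes, and 10032 to 11435 cells per library were kept. Any pair of libraries shared at most 80 barcodes, or 0.6575% of the smaller. Cells were clustered and named from markers, and 7 classes had at least 100 cells in every library: macrophage/monocyte-like (6104 to 6743 cells per library), fibro/adipogenic progenitor-like (FAP-like, 1459 to 1839), myogenic (211 to 463, a single cluster with Cdh15, Myog and Myod1 among its leading genes), endothelial-like (651 to 978), dendritic-like (398 to 822), tenocyte-like (122 to 219) and T/NK-like (124 to 208). Every marker of the macrophage/monocyte, FAP, endothelial, dendritic, tenocyte and T/NK lists had UMIs in its own class. In tenocyte-like cells the FAP markers summed to more than the tenocyte markers; that list includes collagen genes that both cell types express. In dendritic-like cells the macrophage/monocyte markers summed to 4393 CPM for young PBS, 3205 for old PBS and 5192 for old rMETRNL, more than the dendritic markers at 1369, 1909 and 1177 CPM. Levels are given as CPM, the UMIs of the gene scaled to a class total of 1000000 UMIs, and they carry no scaling by transcript length. Where 3 values stand together they follow the order young PBS, old PBS, old rMETRNL. In the annotation Dbp, Tef, Nr1d1, Arntl and Ciart each overlap a gene on the other strand, and whether counting used strand was not given in the sources used here. A pair of gene and class was compared where it had at least 30 UMIs over the 3 libraries, which held for 60 of the 70 pairs, and a pair was called where the ratio of 2 libraries reached 1.5 in either direction and its 95% interval excluded 1.

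Between old PBS and young PBS, 5 of the 60 pairs were called higher in old PBS (8.33%) and 6 were called lower (10%), while over all 85952 pairs of gene and class 6.26% were called higher and 5.28% lower. Dbp in macrophage/monocyte-like and tenocyte-like cells, Per3 in endothelial-like cells, Ciart in FAP-like cells, and Tef and Hlf in tenocyte-like cells were lower, and Hlf in 3 classes, Per2 in myogenic cells and Arntl in tenocyte-like cells were higher. Without the tenocyte-like class, which had 122 cells in old PBS, the counts were 4 higher and 3 lower of 51, against 6.18% and 5.34% of the 75088 pairs of all genes in the other 6 classes. Between old rMETRNL and old PBS, 3 pairs were called higher and 3 lower (5% each), against 4.04% and 4.08% of all pairs, and without the tenocyte-like class 1 was higher and 3 lower of 51, against 4.11% and 3.96%. Between old rMETRNL and young PBS none was called higher and 2 were called lower, against 3.46% and 2.72% of all pairs; these 2 were Per3 in endothelial-like cells at a ratio of 0.639 and Dbp in tenocyte-like cells at 0.60, of which the Per3 call was lost under the stricter cell filter (0.673), with doublet calls kept (0.672) and with per-cell CPM averaged (0.769). The contrasts share libraries, so they are not independent of each other.

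Over all 60 pairs, called or not, values leaned lower in both old libraries than in young PBS. The pairs are 10 genes counted in the same 3 libraries, so they are not independent. The ratio to young PBS was under 1 in 41 pairs for old PBS (68.3%, against 50.9% of all gene and class pairs) and in 44 for old rMETRNL (73.3%, against 47.5%), and that of old rMETRNL over old PBS was under 1 in 29 (48.3%, against 47.6%). The old PBS interval lay below 1 in 15 pairs and above 1 in 7, while over all genes 19.3% of pairs lay below and 18.5% above. The tenocyte-like class gave 8 of the 41 ratios under 1 and 5 of these 15 intervals for old PBS, and 1 interval above 1. For old rMETRNL over old PBS the interval lay below 1 in 7 pairs and above it in 6, against 14.4% and 18.1% of all pairs, and for old rMETRNL over young PBS it lay below 1 in 14 and above it in 2, against 12.5% and 16.4%. Young PBS held the highest of the 3 levels in 34 of the 60 pairs (56.7%, against 33.3% of all pairs), and old PBS held the lowest in 30 (50%, against 39.5%). In macrophage/monocyte-like cells the median log2 ratio of old PBS over young PBS was -0.14 over the 10 members and 0.00 over 15238 genes, and in FAP-like cells it was -0.16 over the members and -0.03 over 15366 genes. The largest shift of the median was in tenocyte-like cells, at -0.69 over 9 members, against 0.00 over 10864 genes, and there the median of old rMETRNL over old PBS was 0.54. In endothelial-like cells the median lay on the other side, at 0.12. The medians differed in size and in side between the classes.

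**Figure D1:**
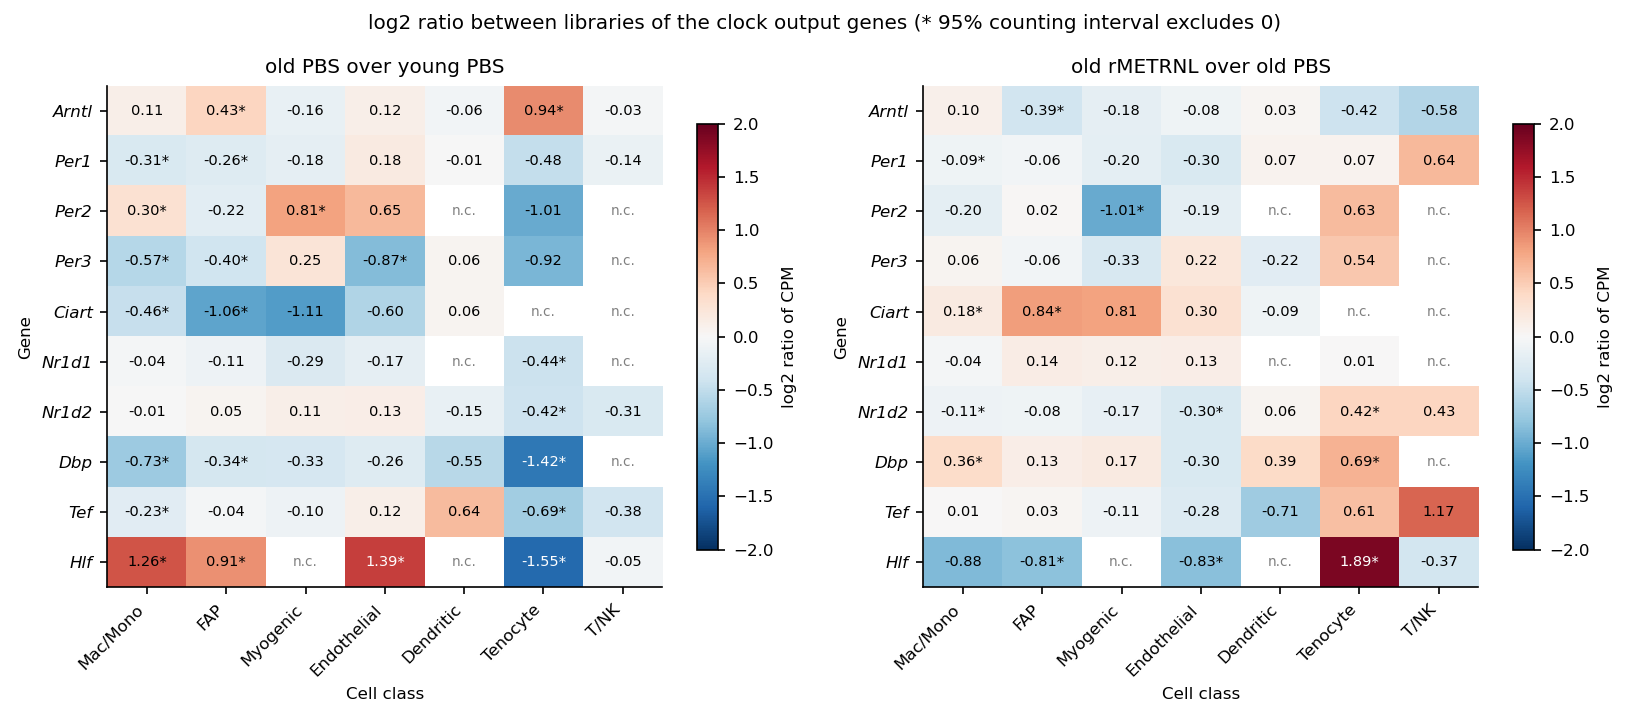
Heat maps of the log2 ratio of CPM for the 10 genes (rows) in the 7 cell classes (columns), for old PBS over young PBS on the left and old rMETRNL over old PBS on the right. Red is higher and blue lower in the library named first, a star marks a 95% counting interval that excludes 0, and n.c. marks pairs with under 30 UMIs, which were not compared; the column of tenocyte-like cells spans the widest range on the left, from -1.55 for Hlf to 0.94 for Arntl.

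**Figure D2:**
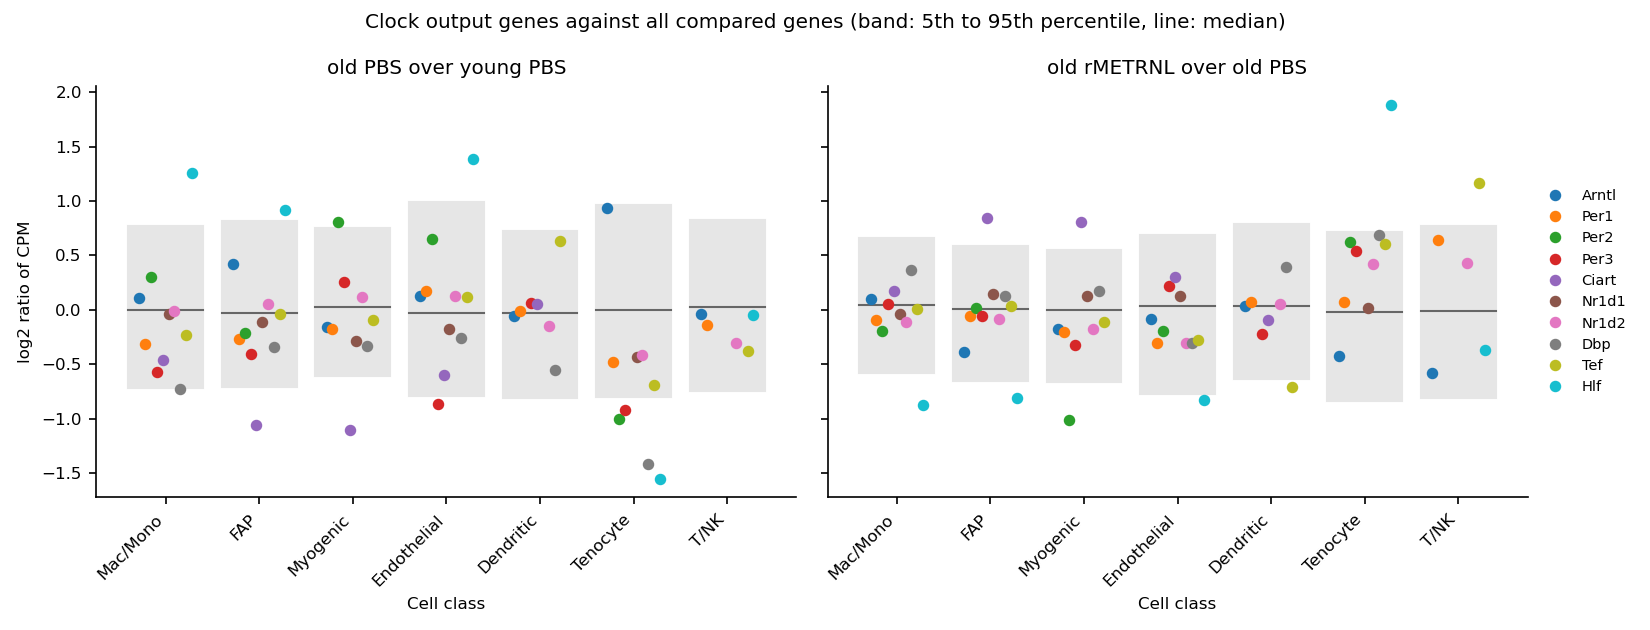
Points are the log2 ratios of CPM of the 10 genes in each cell class, for old PBS over young PBS on the left and old rMETRNL over old PBS on the right. The grey band spans the 5th to the 95th percentile of all compared genes of that class and the line is their median, and most points lie inside the band, with Hlf outside it in macrophage/monocyte-like, FAP-like, endothelial-like and tenocyte-like cells in both panels.

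Arntl (chr7:113207465-113314126, plus strand, GRCm38), the gene of the activator BMAL1, was higher in old PBS in FAP-like and tenocyte-like cells, and its old PBS and young PBS levels did not differ beyond counting error elsewhere. In FAP-like cells its level was 22.5 CPM for young PBS, 30.2 for old PBS and 23.1 for old rMETRNL. Old PBS stood alone, with a ratio over young PBS of 1.34 (95% interval 1.23 to 1.47), under the threshold of 1.5, and old rMETRNL lay at 0.764 of old PBS (0.701 to 0.834). In tenocyte-like cells the levels were 13.8, 26.4 and 19.8 CPM, from 56, 55 and 80 UMIs. The ratio of old PBS over young PBS was 1.92 there (1.3 to 2.83), and that of old rMETRNL over old PBS was 0.749, with an interval of 0.525 to 1.08 that holds 1. Macrophage/monocyte-like cells had levels of 8.85, 9.56 and 10.2 CPM and the ratio of old PBS over young PBS was 1.08 (0.984 to 1.18). Old rMETRNL was above young PBS there, at a ratio of 1.16 (1.06 to 1.26), and also in tenocyte-like cells, at 1.44 (1.01 to 2.06), both under the threshold of 1.5. The myogenic, endothelial-like, dendritic-like and T/NK-like ratios of old PBS over young PBS lay between 0.893 and 1.09, each with an interval that holds 1.

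Per1 (chr11:69095217-69109960, plus strand), a repressor gene of the loop that also responds quickly to outside signals, was lower in both old libraries in macrophage/monocyte-like and FAP-like cells. In macrophage/monocyte-like cells it was at 24.3 CPM for young PBS, 19.6 for old PBS and 18.4 for old rMETRNL. In FAP-like cells it was at 11.9, 9.88 and 9.50 CPM. The ratios of old PBS over young PBS were 0.805 (0.758 to 0.855) and 0.832 (0.724 to 0.955), short of a call, and in the other 5 classes they ran from 0.701 in tenocyte-like to 1.13 in endothelial-like cells with intervals that hold 1. For old rMETRNL over young PBS the interval excluded 1 in the same classes and in myogenic cells, at ratios of 0.756, 0.80 and 0.769.

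Per2 (chr1:91415982-91459324, minus strand), another Period gene, did not follow Per1. In myogenic cells it was at 3.29 CPM for young PBS, 5.72 for old PBS and 2.84 for old rMETRNL, from 51, 37 and 41 UMIs. Old PBS stood above both other libraries, with a ratio of 1.74 over young PBS (1.11 to 2.71), and old rMETRNL was at 0.497 of old PBS (0.311 to 0.797). The make-up of the class differed between libraries, with myocyte markers summing to 3154, 2224 and 1496 CPM and mature fibre markers to 3439, 2599 and 2140 CPM, and the part of this in the Per2 values was not tested. The macrophage/monocyte-like levels of 1.81, 2.23 and 1.94 CPM gave a ratio of 1.23 (1.01 to 1.51) for old PBS over young PBS. In FAP-like, endothelial-like and tenocyte-like cells the intervals hold 1, and in dendritic-like and T/NK-like cells Per2 had too few UMIs to be compared, with 3, 3 and 1 and with 2, 3 and 0 in the order of the libraries. In T/NK-like cells of old rMETRNL the count of 0 allows up to 3.36 CPM by the limit of 3 counts, and the exact 2-sided interval reaches 4.13 CPM.

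Per3 (chr4:151003652-151044665, minus strand), the third Period gene, was lower in both old libraries in 4 classes, and in 3 of them the intervals excluded 1. Its levels in endothelial-like cells were 13 CPM for young PBS, 7.11 for old PBS and 8.33 for old rMETRNL. In FAP-like cells they were 11.1, 8.36 and 8.04, and in macrophage/monocyte-like cells 5.27, 3.55 and 3.70. In tenocyte-like cells they were 10.3, 5.29 and 7.92, from 42, 11 and 32 UMIs, and both ratios to young PBS had intervals that hold 1. Young PBS was the highest library in the other 3 classes too, and the ratios of old PBS over young PBS were 0.545 in endothelial-like (0.384 to 0.764), 0.756 in FAP-like (0.651 to 0.876) and 0.674 in macrophage/monocyte-like cells (0.587 to 0.773), of which only the endothelial-like ratio passed the threshold of 1.5. In endothelial-like cells Per3 was at 11.4, 7.52 and 7.80 CPM in the larger cluster, led by Cldn5 and Gpihbp1, and at 19.9, 5.57 and 10.8 CPM in the smaller, led by Selp and Sele, whose share of the class was 23.8%, 13.1% and 16.7%. The ratio of old PBS over young PBS was 0.662 in the larger (0.445 to 0.969) and 0.281 in the smaller (0.113 to 0.608). With the ratio held within clusters it was 0.543 for old PBS and 0.646 for old rMETRNL. The old libraries did not separate: old rMETRNL over old PBS had an interval that holds 1 in each of the 6 classes compared, at ratios of 0.802 to 1.5. A gene on the same strand, Camta1, overlaps Per3 in the annotation, and UMIs in the overlap could belong to either.

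Ciart (chr3:95878503-95882251, minus strand), a repressor of the CLOCK and BMAL1 pair and the member with 3 E-boxes in its window, was lower in old PBS in the classes where it could be measured best. Most of its UMIs came from macrophage/monocyte-like cells, with 10.3 CPM for young PBS, 7.51 for old PBS and 8.49 for old rMETRNL. The ratio of old PBS over young PBS was 0.725 there (0.659 to 0.798), and that of old rMETRNL over old PBS was 1.13 (1.03 to 1.25). With the ratio held within clusters these were 0.851 and 0.992, so the old libraries were nearly equal there. In FAP-like cells the levels were 1.42, 0.671 and 1.22 CPM, from 68, 22 and 57 UMIs. Old PBS was again the lowest, at 0.472 of young PBS (0.278 to 0.773), and old rMETRNL was at 1.82 of old PBS (1.09 to 3.12), a call that was lost with doublet calls kept, at 1.46. The myogenic ratio of 0.429 rested on 28 and 5 UMIs and its interval, 0.129 to 1.12, holds 1. In dendritic-like cells the ratio was 1.02 (0.471 to 2.14).

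Nr1d1 (chr11:98767932-98775333, minus strand), the gene of the repressor REV-ERB alpha, differed little between libraries where it was counted deeply. In macrophage/monocyte-like cells its level was 16.9 CPM for young PBS, 16.4 for old PBS and 16.0 for old rMETRNL. In FAP-like cells it was 11, 10.2 and 11.3 CPM, and in endothelial-like cells 33.4, 29.6 and 32.5 CPM. The intervals of old PBS over young PBS bound the differences in these classes to 0.908 to 1.04, 0.806 to 1.07 and 0.740 to 1.06. In tenocyte-like cells it was at 39.9, 29.3 and 29.7 CPM, a ratio of 0.735 (0.538 to 0.993) for old PBS and of 0.745 (0.583 to 0.949) for old rMETRNL over young PBS. No pair of Nr1d1 was called in any contrast.

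Nr1d2 (chr14:18204054-18239127, minus strand), the gene of REV-ERB beta, had no called pair, but some of its intervals excluded 1. Its macrophage/monocyte-like level was 23.7 CPM for young PBS, 23.5 for old PBS and 21.8 for old rMETRNL, and in FAP-like cells it was 25.5, 26.5 and 25.0. The intervals of old PBS over young PBS there were 0.937 to 1.05 and 0.950 to 1.13. The macrophage/monocyte-like level was lowest in old rMETRNL, at 0.927 of old PBS (0.876 to 0.982) and 0.921 of young PBS (0.870 to 0.975). Old rMETRNL was also at 0.812 of old PBS (0.691 to 0.954) in endothelial-like cells. In tenocyte-like cells old PBS was the low library, with 43.8, 32.7 and 44.1 CPM and ratios of 0.746 over young PBS (0.555 to 0.991) and 1.35 for old rMETRNL over old PBS (1.01 to 1.81).

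Dbp (chr7:45705088-45710203, plus strand), the classic output gene of the loop, was lower in old PBS than in young PBS in all 6 classes compared, beyond counting error in 3 of them. In macrophage/monocyte-like cells its level was 26.4 CPM for young PBS (25.4 to 27.4), 15.9 for old PBS (15.1 to 16.7) and 20.4 for old rMETRNL (19.6 to 21.3). The 3 intervals do not overlap, and old PBS was at 0.603 of young PBS (0.566 to 0.642), a call that was lost with the ratio held within clusters, at 0.672. In tenocyte-like cells the levels were 49.5 CPM for young PBS, 18.3 for old PBS and 29.7 for old rMETRNL, from 201, 38 and 120 UMIs. This was the largest difference of Dbp, with old PBS at 0.369 of young PBS (0.254 to 0.524) and old rMETRNL at 1.63 of old PBS (1.12 to 2.41), where the latter call was lost with the mean of per-cell CPM, at 1.47. In FAP-like cells the levels were 13.8, 10.8 and 11.8 CPM, and old PBS was at 0.787 of young PBS (0.690 to 0.897), under the threshold.

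The remaining Dbp values were less certain. In endothelial-like cells the levels were 27.1 CPM for young PBS, 22.7 for old PBS and 18.4 for old rMETRNL, so that here old rMETRNL and not old PBS was the lowest, at 0.678 of young PBS (0.564 to 0.813). The myogenic levels were 9.21, 7.27 and 8.25 CPM and the dendritic-like levels 3.37, 2.23 and 3.01 CPM, with intervals of every ratio that hold 1. In T/NK-like cells Dbp had 3, 12 and 3 UMIs, too few to be compared, and there the highest value was that of old PBS.

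Tef (chr15:81802421-81826863, plus strand), which encodes a D-box factor related to DBP, was called in 1 of the 7 classes. In FAP-like cells it was at 17.4 CPM for young PBS, 17.0 for old PBS and 17.4 for old rMETRNL. Its macrophage/monocyte-like levels were 15.2, 12.9 and 13 CPM, and old PBS lay at 0.853 of young PBS (0.791 to 0.919). The 1 called pair was in tenocyte-like cells, with 19.7, 12 and 18.6 CPM from 80, 25 and 75 UMIs and a ratio of 0.610 (0.373 to 0.966) for old PBS over young PBS, and this call was lost with the mean of per-cell CPM, at 0.697.

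Hlf (chr11:90336536-90390895, minus strand), the third D-box factor and also a gene of blood stem and progenitor cells, went against Dbp in 2 of the classes where both were well counted. In FAP-like cells its level was 4.35 CPM for young PBS, 8.21 for old PBS and 4.66 for old rMETRNL. In endothelial-like cells it was 4.12, 10.8 and 6.07 CPM. Old PBS was the high library in both, at 1.89 (1.57 to 2.27) and 2.63 (1.77 to 3.94) times young PBS, and old rMETRNL was at 0.568 (0.473 to 0.682) and 0.562 (0.399 to 0.791) of old PBS. The endothelial-like class was made of a cluster led by Cldn5 and Gpihbp1, which held 76.2%, 86.9% and 83.3% of its cells, and a cluster led by Selp and Sele. The Hlf ratio of old PBS over young PBS was 2.63 in the first (1.69 to 4.14) and 2.63 in the second (1.05 to 7.17, from 8 and 15 UMIs), and that of old rMETRNL over old PBS was 0.609 (0.419 to 0.885) and 0.330 (0.114 to 0.859). The endothelial-like ratio of old PBS over young PBS was 1.496 when per-cell CPM was averaged, which ends its call. Pericyte/smooth muscle markers moved with Hlf in endothelial-like cells, at 778, 1364 and 1027 CPM in sum over all 8 of them, and Hlf was at 15, 33.3 and 23.5 CPM in pericyte-like cells; their part in the endothelial-like value was not tested. In tenocyte-like cells the order turned, with 7.63, 2.40 and 9.66 CPM, but these rest on 31, 5 and 39 UMIs. The ratio of old PBS over young PBS was 0.315 there (0.0956 to 0.817). In T/NK-like cells, which held the highest levels of Hlf among the 7 compared classes, at 25.9, 25.0 and 19.1 CPM, the libraries did not differ beyond counting error.

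The call of Hlf in macrophage/monocyte-like cells rests on very few UMIs: 8 for young PBS, 20 for old PBS and 12 for old rMETRNL, over 6104 to 6743 cells. These levels were 1.86%, 2.45% and 2.30% of the Hlf level in FAP-like cells of the same library. The FAP markers, summed, stood in macrophage/monocyte-like cells at 2.12%, 1.17% and 1.70% of their FAP-like level. The part of RNA from other cells in these UMIs was not tested. In FAP-like cells Hlf was higher in the cluster led by Pi16 (13.8, 22.5 and 11.3 CPM) than in the cluster led by Sfrp2 (3.18, 5.29 and 3.34 CPM), and the Pi16 cluster made up 14.8% of FAP-like cells for young PBS, 26.9% for old PBS and 23.1% for old rMETRNL. With the ratio held within these clusters, old PBS over young PBS was 1.65 in place of 1.89, and both clusters had old PBS as the high library.

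Across the compared cell classes the members had their own orders of level, and the classes with too few cells to be compared were not ranked. Dbp, Nr1d1 and Nr1d2 were highest in tenocyte-like cells and next in endothelial-like cells, where their ranges over the 3 libraries overlapped, and lowest in dendritic-like cells except that the range of Dbp there overlapped that of T/NK-like cells. Per1 had another order, with mean levels of 28.1 CPM in T/NK-like and 25.3 in dendritic-like cells, whose ranges overlapped, above 20.8 in macrophage/monocyte-like cells. Ciart was highest in macrophage/monocyte-like cells, at 7.51 to 10.3 CPM. The next class was T/NK-like cells, at 2.63 to 5.60 CPM, with no overlap of the point values, but these rest on 14 UMIs in all, under the minimum of 30. Arntl was highest in FAP-like cells, at 22.5 to 30.2 CPM, overlapping tenocyte-like and T/NK-like cells. Among the compared classes Hlf was highest in T/NK-like cells, at 19.1 to 25.9 CPM. That range did not overlap the endothelial-like range of 4.12 to 10.8 CPM. Tef was highest in endothelial-like and myogenic cells, at 20.3 to 24.6 and 19.1 to 22.0 CPM. Per2 and Per3 were lowest in dendritic-like and T/NK-like cells. The Per2 range in T/NK-like cells, 0 to 1.97 CPM from 5 UMIs, overlapped the macrophage/monocyte-like range of 1.81 to 2.23 CPM.

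The ratio of Dbp to Arntl within a library needs no scaling to a total, since both counts come from the same cells. Its value depends on how well each transcript is captured, so only its change between libraries is read. In macrophage/monocyte-like cells there were 2.98 Dbp UMIs per Arntl UMI for young PBS, 1.66 for old PBS and 2.0 for old rMETRNL, and in FAP-like cells 0.612, 0.359 and 0.513. The change from young PBS to old PBS was 0.558 (0.50 to 0.624) in the first and 0.586 (0.502 to 0.684) in the second, so these classes had a change of about the same size, reached in macrophage/monocyte-like cells through Dbp and in FAP-like cells through both genes. In tenocyte-like cells the ratios were 3.59, 0.691 and 1.5, and the change was 0.192 (0.116 to 0.320). From old PBS to old rMETRNL the ratio was higher by 1.20 times in macrophage/monocyte-like cells (1.08 to 1.34), 1.43 times in FAP-like cells (1.22 to 1.68) and 2.17 times in tenocyte-like cells (1.32 to 3.58).

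In myogenic, endothelial-like and dendritic-like cells the change from young PBS to old PBS was not beyond counting error. From young PBS to old PBS the intervals were 0.566 to 1.38 in myogenic cells, 0.556 to 1.06 in endothelial-like cells and 0.284 to 1.70 in dendritic-like cells, and of these the last pair also hold the macrophage/monocyte-like value. In T/NK-like cells the ratio moved the other way, from 0.0789 to 0.353, a change of 4.47 (1.16 to 17.2) that rests on 3 Dbp UMIs in young PBS. In endothelial-like cells the lowest ratio was that of old rMETRNL, at 1.28 against 1.94 in young PBS, a change of 0.659 (0.495 to 0.878) that is beyond counting error.

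**Figure D3:**
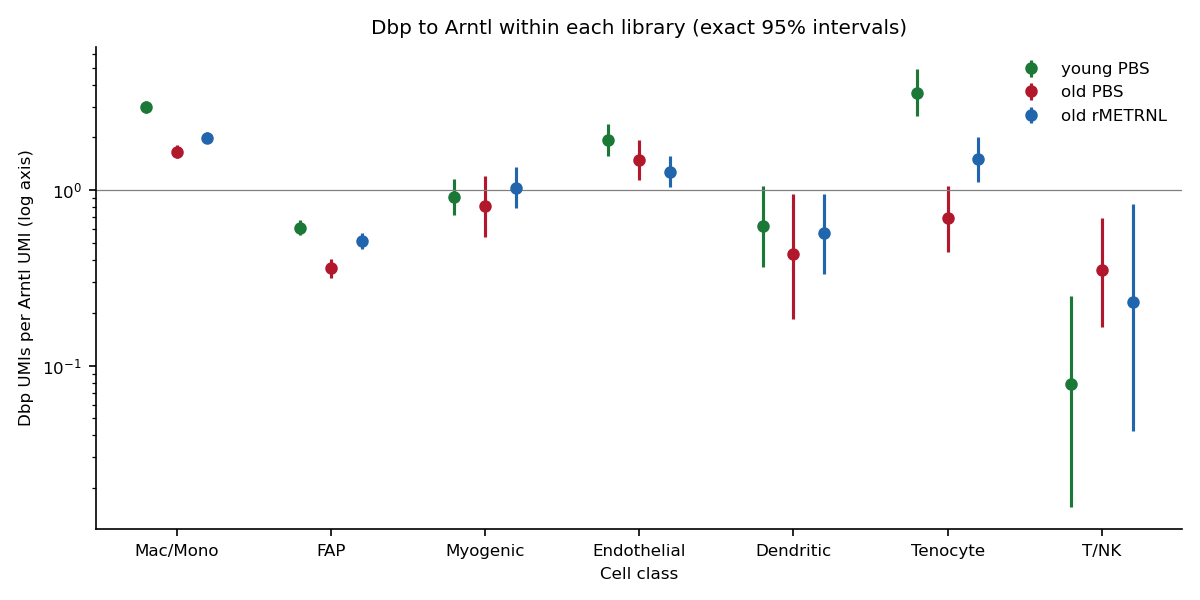
Dbp UMIs per Arntl UMI in each of the 7 cell classes and 3 libraries, on a log axis, with exact 95% intervals from counting. In macrophage/monocyte-like, FAP-like and tenocyte-like cells young PBS is highest and old PBS lowest; in endothelial-like cells old rMETRNL is lowest, and in T/NK-like cells young PBS is lowest.

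Whether the libraries differed alike in all classes was measured by dividing the ratio of 1 class by that of another. For old PBS over young PBS, 42 of 154 such quotients of the members had an interval that excludes 1 (27.3%), against 25.8% of the quotients of all genes. For old rMETRNL over old PBS it was 28 of 154 (18.2%), against 22% of all, and for old rMETRNL over young PBS 16 of 154 (10.4%), against 19.3% of all. The share of the members was close to that of all genes in the first contrast and below it in the others. The quotients of 1 gene share classes and are not independent. For Dbp, the old PBS over young PBS ratio of FAP-like cells was 1.31 times that of macrophage/monocyte-like cells (1.13 to 1.51), that of endothelial-like cells 1.38 times (1.13 to 1.70) and that of tenocyte-like cells 0.612 times (0.431 to 0.871). For Arntl it was 1.24 times higher in FAP-like than in macrophage/monocyte-like cells (1.10 to 1.41). For Nr1d1 and Ciart none of the 10 quotients excluded 1 in this contrast. Each of the other 8 members had at least 2 quotients that excluded 1.

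Within macrophage/monocyte-like cells the clusters differed too. The cluster led by Slc7a11 and Mmp12 made up 20.1% of the class for young PBS, 36.2% for old PBS and 17.2% for old rMETRNL, and the cluster led by Calhm6 and Themis2 made up 31.7%, 14.7% and 22.8%. Dbp was lower in old PBS than in young PBS in all 6 clusters, with intervals below 1 in 5, and the ratio was lowest in the clusters led by Ly6c2 at 0.384 (0.185 to 0.753) and by Cd163 at 0.450 (0.383 to 0.527). In the Cd163 cluster Dbp was at 44.6 CPM for young PBS, 20.1 for old PBS and 32.0 for old rMETRNL. In the cycling cluster led by Top2a it was at 11.6, 11.2 and 12.5 CPM, a ratio of 0.959 (0.720 to 1.28). With the ratio held within clusters, Dbp was at 0.672 in place of 0.603, which ends its call, Ciart at 0.851 in place of 0.725 and Per1 at 0.807 in place of 0.805.

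The class value of Nr1d1, nearly equal between libraries, held 2 clusters that differed in opposite directions. In the Calhm6 cluster Nr1d1 was at 12.4 CPM for young PBS, 18.9 for old PBS and 13.5 for old rMETRNL, and the ratio of old PBS over young PBS was 1.51 (1.26 to 1.82). In the Slc7a11 cluster it was at 21.8, 14.5 and 17.6 CPM, with a ratio of 0.667 (0.585 to 0.760). Per1 was likewise higher in old PBS in the Calhm6 cluster, at 1.24 (1.07 to 1.43), and lower in the Slc7a11 cluster, at 0.691 (0.618 to 0.773). In FAP-like cells the Arntl difference lay in the Sfrp2 cluster, with 21.7, 30.2 and 22.2 CPM, while in the Pi16 cluster Arntl was at 28.9, 30.2 and 27.4 CPM, a ratio of 1.04 (0.834 to 1.31).

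**Figure D4:**
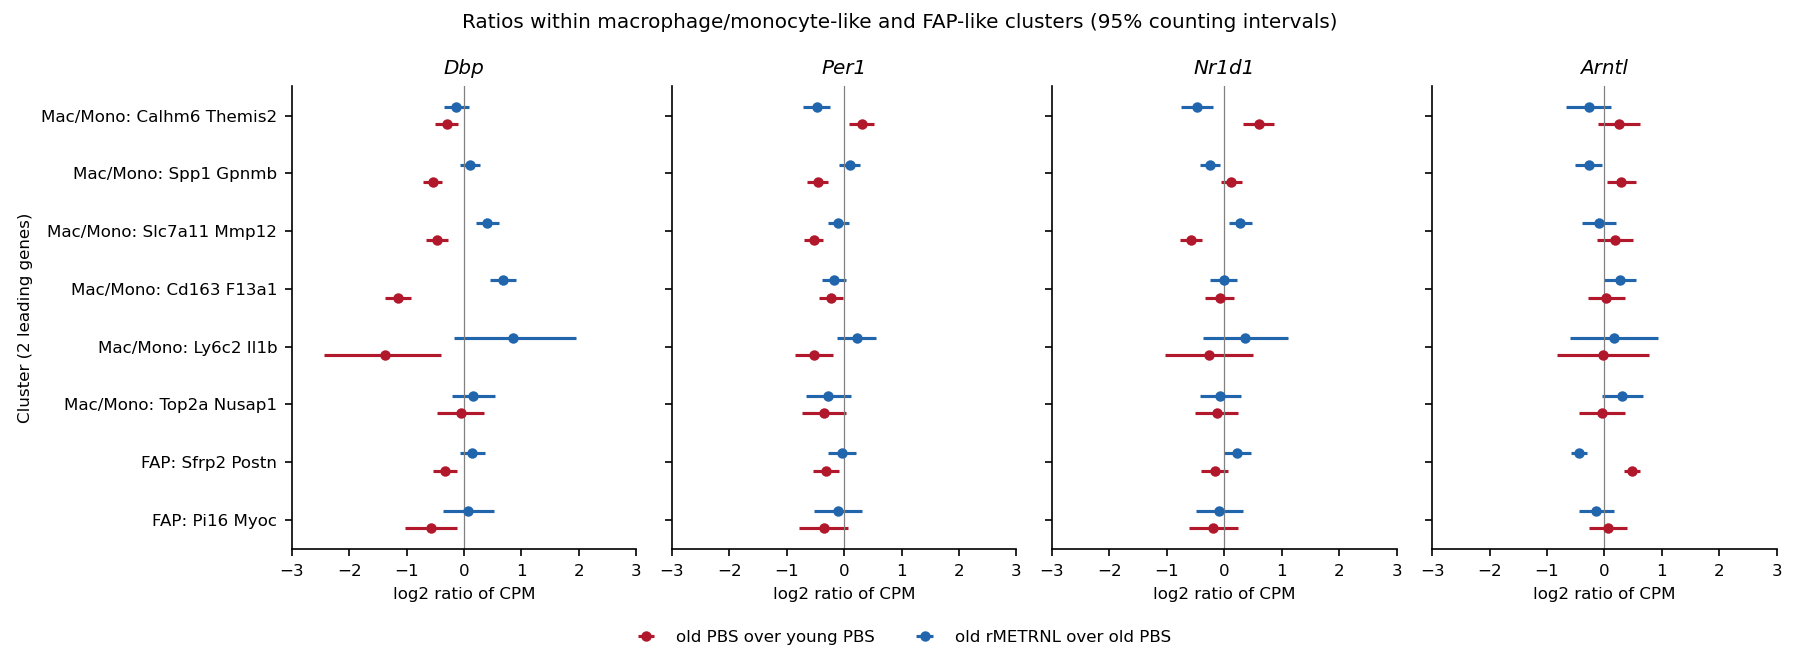
log2 ratio of CPM of Dbp, Per1, Nr1d1 and Arntl in the 6 macrophage/monocyte-like and the 2 FAP-like clusters, named by their leading genes, for old PBS over young PBS (red) and old rMETRNL over old PBS (blue), with exact 95% counting intervals. Dbp lies left of 0 in red in every cluster, while Nr1d1 and Per1 lie right of 0 in red in the Calhm6 cluster and left of it in the Slc7a11 cluster.

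Of the other core clock genes (Clock, Npas2, the cryptochromes, ROR receptors, the repressors Nfil3, Bhlhe40 and Bhlhe41, and kinases and ligases of the loop), 84 of 105 pairs were compared. For old PBS over young PBS 4 were called higher and 3 lower (4.76% and 3.57%, against 6.26% and 5.28% of all pairs), and for old rMETRNL over old PBS 2 were called in each direction (2.38%, against 4.04% and 4.08%). The median log2 ratio of old PBS over young PBS was 0.09 over these pairs and -0.15 over the pairs of the members. Of the further clock-controlled genes, 37 of 42 pairs were compared, with 3 called higher and 2 lower in old PBS (8.11% and 5.41%, near the 6.26% and 5.28% of all pairs). All 3 higher calls were Lonrf3, a gene of a RING finger protein: its level in macrophage/monocyte-like cells was 24 CPM for young PBS, 40.0 for old PBS and 31.1 for old rMETRNL, and its ratios of old PBS over young PBS were 1.67 there, 1.53 in FAP-like cells and 3.78 in endothelial-like cells. In the other 3 classes compared its ratio was 1.48, 1.44 and, in dendritic-like cells, 0.414 (0.121 to 1.14), with intervals that hold 1.

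Other measures moved with the libraries. Per1 and other clock genes also respond to glucocorticoids, and of 56 pairs of a list of 8 glucocorticoid response genes 19 were called higher in old PBS than in young PBS (33.9%, against 6.26% of all pairs) and none lower (against 5.28%). The list was chosen with earlier results of these data known. Of the 19 calls Mt2 had 5, Zbtb16, Sgk1, Klf9 and Errfi1 had 3 each, Fkbp5 and Cebpd had 1 each, and Tsc22d3 had 0. That list summed to 468 CPM for young PBS, 648 for old PBS and 512 for old rMETRNL in macrophage/monocyte-like cells and 2766, 4389 and 3331 CPM in FAP-like cells. In tenocyte-like cells it summed to 2881, 3102 and 3341 CPM, with 4 of its 8 ratios of old PBS over young PBS above 1. Of 112 pairs of dissociation stress genes 6 were called higher (5.36%, against 6.26% of all pairs) and 18 lower (16.1%, against 5.28%) in old PBS than in young PBS, and 19 higher (17%, against 4.04%) and 5 lower (4.46%, against 4.08%) in old rMETRNL than in old PBS. Endothelial-like cells differed from that pattern, with intervals above 1 for 16 of 16 stress genes in old PBS over young PBS, against 18.5% of all pairs of the 7 classes. Of these 4 were called higher and 0 lower (25% and 0%, against 8.75% and 7.14% of all genes in that class). In myogenic cells 2 of 16 were called higher and 0 lower (12.5% and 0%, against 5.02% and 3.09% of all genes in that class), which is few pairs. The heat shock genes Hspa1a and Hspa1b took 0.215% of macrophage/monocyte-like UMIs for young PBS, 0.107% for old PBS and 0.209% for old rMETRNL, and 0.354%, 0.40% and 0.395% of endothelial-like UMIs. The part of these measures in the clock gene values was not tested.

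Cell content and depth differed as well. In tenocyte-like cells, where the members differed most, the macrophage/monocyte markers summed to 648 CPM for young PBS, 2353 for old PBS and 980 for old rMETRNL, and all 12 of these markers had UMIs there, while the tenocyte markers stood at 20862, 21548 and 19849 CPM and the FAP markers at 37733, 34235 and 39725 CPM. The median cell of the endothelial-like class held 11363 UMIs for young PBS, 3938 for old PBS and 7223 for old rMETRNL. Markers of mature fibres, which express Dbp, Nr1d1 and Tef, summed to 65.9, 168 and 88.6 CPM in macrophage/monocyte-like cells, against 181386, 167332 and 177498 CPM in the mature fibre-like cells themselves. In endothelial-like cells they summed to 26, 344 and 65.2 CPM. Erythroid markers summed to 278, 28.7 and 66.3 CPM in macrophage/monocyte-like cells and to 22.7, 175 and 39.7 CPM in endothelial-like cells. The part of each in the values above was not tested.

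Genes with a pattern like that of a member were ranked over 15 points, the 5 classes with most UMIs in 3 libraries, by the Pearson correlation of the log2 level centred on its class, among 9990 genes. The points share libraries and totals, and each weighs alike, although the dendritic-like Dbp values rest on 25, 10 and 25 UMIs. The genes named are the highest of 9990, and how high such a maximum would be among unrelated genes was not computed. Nearest to Dbp were Hist3h2a (0.937), Irf7 (0.935), Limd2 (0.931), Oasl2 (0.931) and Grhpr (0.924), and nearest to Nr1d1 were Cc2d1a (0.937), Prep (0.924), Sccpdh (0.904), Tmem63b (0.902) and Ubfd1 (0.90). No member was among them; Per2 and Hlf had too few UMIs to be ranked, as had Nr1d1 in the ranking for Dbp, since it had 29 UMIs in dendritic-like cells; its own ranking rests on those values, and its correlation with Dbp was -0.209. The members nearest to Dbp were Ciart at 0.557 and Per1 at 0.556, then Per3 at 0.509, with Tef at -0.101 and Arntl at -0.208. Nearest to Nr1d1 among members was Tef at 0.809.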

How the data were processed

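Single-cell libraries were prepared with droplet barcoding from injured tibialis anterior muscle, 1 library per group. The deposited matrices hold UMI counts, not normalized, for each gene in each barcode, made by the authors with Cell Ranger, for which the file headers give version 5.0.0 and the submitters' processing notes list 5.0.0 and 3.1.0, on the build mm10. All columns of counts were mapped to their libraries by the labels.

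A barcode was kept when it held 500 genes or more and less than 10% of its UMIs were mitochondrial. Scrublet's automatic threshold called 0 doublets in each library, so the highest scores were removed at a rate of 0.8% per 1000 barcodes (1072 to 1408 calls per library). After scaling of each cell to 10000 and a log transform, cells were clustered on 2000 variable genes, 30 components and 20 neighbours by Leiden at resolution 0.8, with no integration of libraries (scanpy 1.11.5, leidenalg 0.10.2, Python 3.11.15). Clusters were named from 14 marker lists, and a class was compared where every library had at least 100 cells. UMIs were summed per class and library, and ratios of CPM were given with exact 95% intervals of 2 counts conditional on their sum (scipy 1.17.1), which cover counting error only, as do the exact Poisson intervals of levels. A value of 0 allows up to 3 counts of the class total. Medians of log2 ratios had 0.5 added to each count. The difference between classes was taken as a ratio of ratios with an interval from the log scale. The ratio and interval steps were tested on simulated data.

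All 10 members are named. Of the other clock lists a gene was named where it was called in at least 3 classes in 1 direction, and 5 genes were named as most like Dbp and like Nr1d1. The members and the gene lists were chosen with earlier results of these data known. Alternatives covered the cell filter, doublets, resolution, the genes clustered on, assignment of cells by marker UMIs, the mean of per-cell CPM, scaling, the UMI minimum and the fold. Gene positions are from GENCODE M21 on GRCm38, and promoter windows from RefSeq on GRCm38.p6, whose table was matched for 9 members. The hour of collection and the use of strand in counting were not given in the sources used here.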

Additional observations from a re-analysis of the deposited data

Results flagged for a closer look

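Hlf, a D-box factor gene, had called differences between libraries that pointed in opposite directions in different cell classes. For old PBS over young PBS the macrophage/monocyte-like ratio was 2.48, the FAP-like ratio 1.89 and the endothelial-like ratio 2.63, all higher in old PBS, while in tenocyte-like cells it was 0.315. For old rMETRNL over old PBS it was 0.568 in FAP-like and 0.562 in endothelial-like cells, and 4.02 in tenocyte-like cells. With 1 library per group the difference between classes was not tested. The tenocyte-like ratio divided by the FAP-like ratio was 0.167 (95% counting interval 0.0638 to 0.437) for old PBS over young PBS and 7.07 (2.74 to 18.2) for old rMETRNL over old PBS. The tenocyte-like values rest on 5 UMIs in the 122 cells of old PBS, and the macrophage/monocyte-like value on 8 UMIs in young PBS.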

How the results depend on the processing

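The 19 called pairs of the 3 contrasts, by gene and class, all kept their side of 1 in each alternative that gave them a value, and 15 of the 19 passed the fold with the mean of per-cell CPM, 17 of 19 with doublet calls kept, 9 of 10 under the stricter cell filter and 5 of 6 in macrophage/monocyte-like and FAP-like cells and 4 of 4 in endothelial-like cells with the ratio held within clusters, which was chosen after seeing the data. For old PBS over young PBS, 2 pairs were called higher and 5 lower of 42 under the stricter filter (5.91% and 6.10% of all pairs), at 2-fold 2 were called higher and 3 lower (2.85% and 2.13% of all pairs), 8 of 60 were called lower under the looser filter and 9 of 55 in cells with at least 5000 UMIs (5.29% and 5.28% of all pairs). For old rMETRNL over old PBS, 1 was called higher under the stricter filter (of 42), with cells assigned by marker UMIs (of 44) and at 2-fold (of 60), against 4.63%, 4.4% and 1.64% of all pairs, 1 was called lower at 2-fold (1.69% of all pairs), and 6 were called lower with the mean of per-cell CPM (6.22% of all pairs, against 4.08% with summed UMIs). For old rMETRNL over young PBS, 0 were called lower under the stricter filter (of 42) and at 2-fold (of 60) and 1 with cells assigned by marker UMIs (of 44), against 2.73%, 1.13% and 2.76% of all pairs. With the mean of per-cell CPM 2 of 60 were called higher (6.47% of all pairs). In cells with at least 5000 UMIs, an alternative chosen after seeing the data, 1 of 55 was called higher (3.35% of all pairs). The Dbp over Arntl ratio of FAP-like cells in young PBS was 0.703 with doublet calls kept and 0.677 with the mean of per-cell CPM, where old rMETRNL had 0.581, and that of macrophage/monocyte-like cells was 2.70 in young PBS and 1.85 in old rMETRNL when clock and stress genes were left out of clustering. The cause of these shifts was not tested, except that fewer pairs could be called where classes lost cells: the stricter filter left no myogenic or tenocyte-like class, marker assignment no tenocyte-like class, and the 5000 UMI minimum no T/NK-like class. Depth limits the tenocyte-like, T/NK-like and dendritic-like values most. No paired analysis was possible because each group is 1 library, for which reason no replicate could be left out either.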

Other observations

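Mature fibre-like cells, with 34 cells for young PBS, 432 for old PBS and 131 for old rMETRNL, were too few to be compared. In them Dbp was at 92.9, 64.1 and 78.0 CPM from 13, 95 and 35 UMIs. Nr1d1 was at 100.03, 81.6 and 62.4 CPM, from 14, 121 and 28 UMIs, and Tef at 78.6, 62.1 and 42.3 CPM, from 11, 92 and 19 UMIs. These levels were above those of the same genes in each of the 7 compared classes.

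In pericyte-like cells, with 84, 122 and 83 cells, Dbp was at 29.9, 23.3 and 36.1 CPM, from 22, 14 and 20 UMIs, and Per2 had 2, 11 and 3 UMIs. In Schwann-like cells, with 22, 67 and 45 cells, Hlf was at 6.0, 45.3 and 21.5 CPM, from 1, 13 and 5 UMIs. Old PBS held the highest Hlf value there too, on counts too low for a comparison.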
